A study of Mus musculus with 101 samples.

Results

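The target panel contained 224 regions that the authors placed in a category named aging_Meer, and 131 of them carried intermediate DNA methylation in naive mouse embryonic stem cells. These 131 regions were selected on their measured values: each had a value in at least 80% of lines and a mean over lines of 10% or more, and 2 further regions were left out by the selection. They make up 131 of 868 target regions in all, and 131 of the 787 regions with enough values to be kept. Methylation had been read by enzymatic methyl sequencing (EM-seq), in which enzymes convert unmethylated cytosines, after hybrid capture of the panel. The samples were embryonic stem cell lines from Diversity Outbred mice, an outbred stock descended from several inbred founder strains. All lines were grown in serum with LIF plus 2i, inhibitors of the MEK and GSK3 kinases that keep stem cells naive. The labels name no other treatment and no untreated or serum-only control.

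The 85 lines carried the prefixes B1 (28 lines), B2 (18 lines), B3B (19 lines) and B3A (20 lines). The prefix is the grouping the labels give, without saying what it stands for. How a line was derived, its passage and its founder alleles are not stated there either. Values are the deposited average methylation fractions per region, given here as percent, with differences in percentage points. Read counts are not among the values, and the depth of each library is unknown. Lines lacked between 25 and 173 of the 868 regions, and 109 of the 131 regions had a value in every line. The panel's regions at or near 4 genes of naive pluripotency were low. Their means were 0.360% for Nanog, 0.792% for Zfp42, 0.191% for Tbx3 and 6.26% for Dppa3 (n = 64 to 85 lines). Low values do not identify the cell type here, as 48.2% of all values in the 787 kept regions were under 10%. The files hold no expression.

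Methylation at many CpGs changes with age in a reproducible way, and weighted sums over such sites, called epigenetic clocks, estimate the age of an animal from its DNA. The name of the category matches the first author of a published mouse multi-tissue clock, but no source used here says how the regions were chosen. Embryonic stem cells have no chronological age in this sense, so the values describe the methylation of these loci and not an age. In 2i, maintenance and de novo methylation are reduced, and the genome loses much of its methylation. Loss of methylation at imprinted loci in such cells is one reason why the extent of this loss is studied.

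Few of the 131 regions reached a promoter. Promoter windows of 300 bases, with 250 bases before and 50 after the gene start, were available on the chromosomes of 126 of them, and 6 of these 126 (4.76%) overlapped a window. Among the aging_Meer regions with a mean under 10%, 18 of 85 overlapped one (21.2%), and among regions of the other categories with a mean of 10% or more, 118 of 337 did (35.01%). The median distance from the region centre to the nearest gene start was 9277 bp for the 131 regions, against 2437 bp for the aging_Meer regions under 10% and 1445 bp for the other categories at 10% or more. These shares describe the panel, which the authors designed. Of the 131 regions, 117 overlapped a protein-coding gene, 8 overlapped only a noncoding gene and 6 lay between genes. Each region was 501 bp long, and they lay on 19 chromosomes, with 18 on chromosome 11.

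The 4 promoter windows below are the ones among the 6 that share CpGs with deposited values with their aging_Meer region. The letters and the levels can thus be set side by side. They come from RefSeq (GRCm38.p6) and are written 5′ to 3′ on the strand of the gene. Capitals mark the CpGs that lie within the aging_Meer region and have a value. They belong to Adad2, which encodes an adenosine deaminase domain protein of male germ cells (chr8:119612463-119612762, plus strand), to Sipa1l2, a GTPase-activating protein gene (chr8:125492784-125493083, minus strand), to Neurod2, a transcription factor of neurons (chr11:98329596-98329895, minus strand), and to the noncoding gene Gm14137 (chr2:119174259-119174558, plus strand).
Adad2: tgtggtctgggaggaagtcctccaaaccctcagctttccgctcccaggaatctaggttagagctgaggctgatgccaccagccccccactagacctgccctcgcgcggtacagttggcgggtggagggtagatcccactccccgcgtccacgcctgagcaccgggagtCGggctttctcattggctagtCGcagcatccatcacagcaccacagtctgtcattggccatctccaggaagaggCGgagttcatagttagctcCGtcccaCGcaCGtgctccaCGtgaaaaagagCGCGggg
Sipa1l2: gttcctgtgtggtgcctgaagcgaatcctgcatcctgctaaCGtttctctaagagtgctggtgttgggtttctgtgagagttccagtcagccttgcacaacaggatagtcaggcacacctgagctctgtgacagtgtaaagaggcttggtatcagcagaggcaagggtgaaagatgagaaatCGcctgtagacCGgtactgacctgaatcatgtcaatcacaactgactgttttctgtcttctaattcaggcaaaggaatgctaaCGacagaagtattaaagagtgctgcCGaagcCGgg
Neurod2: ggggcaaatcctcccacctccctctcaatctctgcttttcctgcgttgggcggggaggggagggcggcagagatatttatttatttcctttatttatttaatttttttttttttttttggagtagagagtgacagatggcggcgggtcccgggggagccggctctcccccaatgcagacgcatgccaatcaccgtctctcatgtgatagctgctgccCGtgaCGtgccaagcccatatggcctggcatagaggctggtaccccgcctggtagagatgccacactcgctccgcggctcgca
Gm14137: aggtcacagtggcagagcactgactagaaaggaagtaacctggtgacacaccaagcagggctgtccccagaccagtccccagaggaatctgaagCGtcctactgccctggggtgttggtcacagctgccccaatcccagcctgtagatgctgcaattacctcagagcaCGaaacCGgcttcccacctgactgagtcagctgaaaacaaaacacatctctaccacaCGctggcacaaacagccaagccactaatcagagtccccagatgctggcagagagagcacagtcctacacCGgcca

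The dinucleotide CG, read on one strand since it is its own reverse complement, occurs 18 times in the Adad2 window, 7 times in that of Sipa1l2, 16 times in that of Neurod2 and 5 times in that of Gm14137. Of all 32851 windows, 94.6% hold at least 1 CG, with a median of 7, and 29.7% hold at least as many as Adad2. In the Adad2 window the 9 CpGs of the region with a value differed by position. The CpG 61 bases before the start averaged 21.9% ± 12.8 (SD, n = 85 lines), while the CpG 31 bases after it averaged 3.80% ± 4.15. In the Gm14137 window, the CpG 25 bases before the start averaged 6.17% ± 11.7 and the CpG 82 bases before it averaged 28.3% ± 18.97 (SD, n = 85 lines). The levels of the 6 CpGs in the Sipa1l2 window ran between 15.998% and 35.7%, and the 2 in the Neurod2 window were at 7.11% and 12.8%. Deposited CpG levels cover only CpGs with a value in all 85 lines. A lower-case CG either lacks such a level or lies outside the aging_Meer region, and none is given for it here.

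The levels of the 131 regions spanned 10.9% to 60.4%, with a median of 32.8%. This is a description, since the mean over lines chose them. The highest was a region in Wdfy3, which encodes an autophagy adaptor (chr5:101969771-101970271), at 60.4% ± 20.4 (SD, n = 83). It was followed by regions in Melk, a cell-cycle kinase gene, at 51.9% ± 21.97, and in Fmnl3, a formin that assembles actin, at 51.7% ± 22.4 (SD, n = 85 each). Arhgap28, another GTPase-activating protein gene, stood at 51.4% ± 20.7, Ccdc148 at 50.3% ± 23.8 and the overlapping pair Gnaz and Rsph14, a G protein subunit and a radial spoke protein, at 48.7% ± 22.8. At the other end were Tpcn1, an endolysosomal channel gene, at 10.9% ± 11.3, Asap3, an Arf GTPase-activating protein gene, at 11.01% ± 10.3, and Tm6sf1 at 11.3% ± 9.68. Ralb, which encodes a Ras-like GTPase, averaged 11.5% ± 9.98 (SD, n = 84), the noncoding gene A330001L22Rik 11.5% ± 7.83 and Neurod2 11.6% ± 7.29 (SD, n = 83). The 3 regions just below the threshold overlapped Cers1 and Gdf1 (9.69%), Cnmd (9.47%) and Sema7a (9.08%).

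These means hide wide ranges. Wdfy3 ran from 10.4% to 92.0% among lines, with a median of 62.5%, and 24 lines were above 75%. Melk ran from 7.41% to 92.3% with a median of 51.4%. Asap3 ran from 0.417% to 44.96% with a median of 6.54%, and 50 of 85 lines were under 10%. Over all 131 regions and 85 lines, 2029 of 11058 values (18.3%) were under 10% and 379 (3.43%) were over 75%. Of the 131 regions, 129 were under 10% in at least 1 line and 77 were over 75% in at least 1 line. The same region could therefore be nearly unmethylated in one line and mostly methylated in another.

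Most of this variation was shared by the lines' regions. Averaged over the 131 regions, a line had 30.2% ± 16.04 (SD, n = 85), between 4.81% in a B3A line and 68.3% in a B1 line. In the line with the lowest mean, 119 of 130 regions with a value were under 10%, and in 58 lines no region was over 75%. The most regions over 75% in a line were 71 of 131. By prefix, B1 lines averaged 38.98% ± 14.6 (12.7% to 68.3%), B2 lines 33.1% ± 13.8 (8.23% to 60.3%), B3B lines 25.3% ± 16.6 (6.31% to 64.8%) and B3A lines 20.04% ± 12.2 (4.81% to 45.4%). The ranges of all 4 prefixes overlapped.

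The 131 regions lay above the 566 kept regions of the other categories in each of the 85 lines, by a ratio of line means between 1.44 and 1.75 with a median of 1.61. The other categories averaged 18.7% ± 9.90 per line (SD, n = 85). Since the threshold on the mean applied to the 131 regions and not to the other categories, a ratio above 1 follows in part from the selection. The remaining aging_Meer regions, those under 10%, averaged 3.41% over lines, and their mean within a line did not exceed 9.64%.

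**Figure D1:**
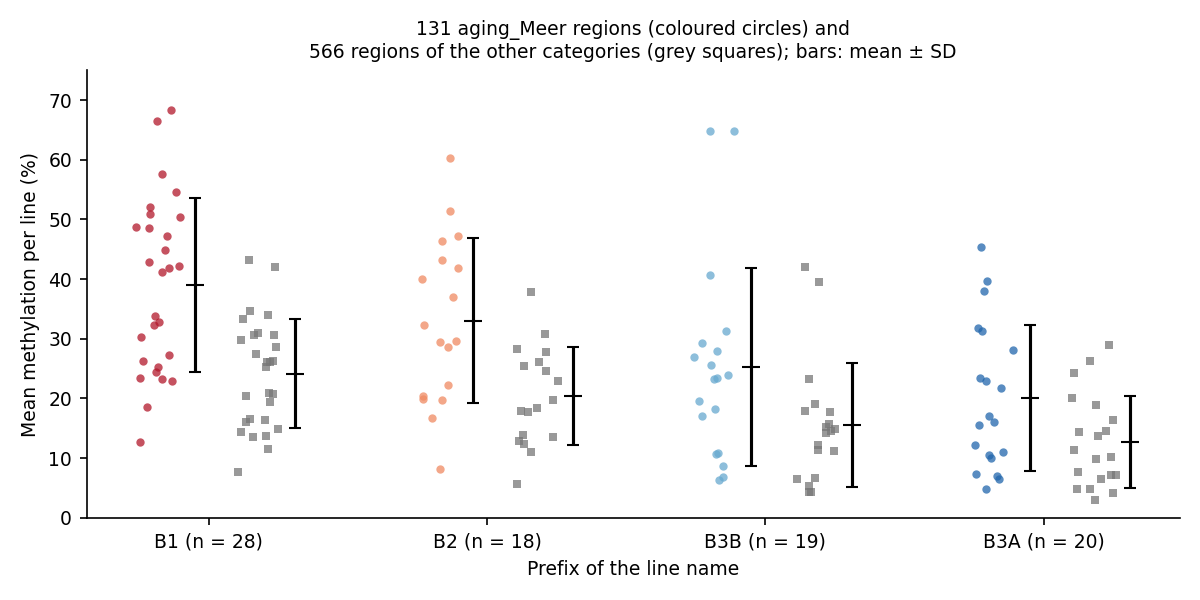
Mean methylation per line (%) over the 131 aging_Meer regions (coloured circles) and over 566 regions of the other categories (grey squares), by prefix of the line name. Each point is a line and bars are mean ± SD; B1 lines averaged 38.98% and B3A lines 20.04% over the 131 regions, with overlapping ranges.

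The spread of a region over lines grew with its level up to about 40%. For the 34 regions with means between 10% and 20% the median SD was 9.83 points, for the 26 between 20% and 30% it was 16.4 points, for the 43 between 30% and 40% it was 20.2 points and for the 28 above 40% it was 21.5 points. The largest SDs belonged to Slc3a1, which encodes a subunit of the kidney's cystine transporter (24.4 points, n = 80), to Ccdc148 (23.8 points), to Fgf12, an intracellular fibroblast growth factor homologue (23.4 points), to Tmem74b (23.2 points) and to the pair Gnaz and Rsph14 (22.8 points). Slc3a1 ran from 2.38% to 91.7% among lines. Among the smallest SDs were those of Sez6l2, a neuronal membrane protein gene (7.07 points), Pax2 (7.12 points), Neurod2 (7.29 points) and Espn, which bundles actin in hair cells (7.497 points). These 4 had means between 11.6% and 14.4%.

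Each of the 131 regions followed the level that a line had at the other categories. Tested as a slope on the line mean of those categories with limma's moderated test across 787 regions and Benjamini-Hochberg adjustment, 131 of 131 regions had a positive slope past 0.05, where 95.2% of all regions did. This share is near the background, and it was 100% also for the 344 regions of the other categories at 10% or more. On the log2 odds scale the slopes ran between 0.71 and 1.66 per 10 points of the other categories, with a median of 1.30. The median was 1.05 over all regions and 1.26 for these 344. In percentage points, a region gained 0.869 points per point of the other categories in the group between 10% and 20%, and 1.53, 1.94 and 2.06 points in the 3 higher groups. The slope was above 1 for 106 of the 131 regions.

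**Figure D2:**
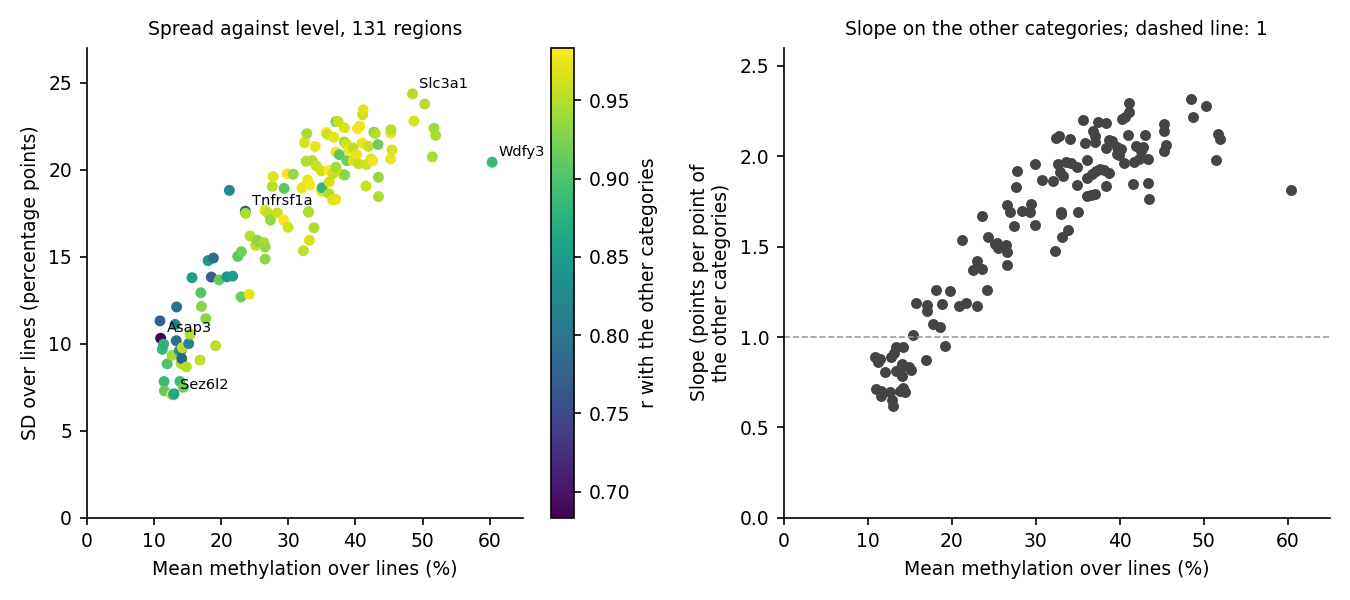
Left, SD over lines (percentage points) against mean methylation (%) for the 131 regions, coloured by Pearson r with the mean of the other categories. Right, slope of each region on that mean (points per point) against its mean methylation; 106 of 131 slopes are above 1, and regions near 10% have the smallest SDs and slopes.

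Pearson's r of a region with the other categories was between 0.683 and 0.984 over lines, with a median of 0.949. It was above 0.9 for 107 of the 131 regions (81.7%). The share was 60.8% for the 344 other-category regions at 10% or more and 42.1% for all kept regions. These sets are not matched. The median level was 32.8% for the 131 regions and 27.5% for the 344. The median number of CpGs with values in all lines was 5 and 3 in that order. Among the 131, the median r was 0.889 for means between 10% and 20% and 0.963 between 30% and 40%. Whether level or CpG number accounts for the different shares was not tested. The closest followers were Cyp1a2, a drug-metabolizing enzyme of liver (r = 0.984, rho = 0.980), Tubb6, a tubulin gene (r = 0.982, rho = 0.971), Kcnn3, a calcium-activated potassium channel gene (r = 0.981, rho = 0.979), D630003M21Rik (r = 0.980, rho = 0.979) and Ly6g6c, which encodes a surface protein of the Ly6 family (r = 0.980, rho = 0.971). Among the least close were Asap3 (r = 0.683, rho = 0.655), Tnfrsf1a, a receptor for tumour necrosis factor (r = 0.773, rho = 0.722), Tpcn1 (r = 0.777, rho = 0.796) and the noncoding gene Lncpint (r = 0.778, rho = 0.8002). The two-sided permutation p of both measures was 1e-05 for each of the 131 regions, which is the smallest that 100000 resamples can give, and the adjusted p over the 787 relations computed was at most 1.15e-05. Without the 2 lines farthest from the median level, r was at least 0.619 and had a median of 0.944. Within prefixes the median r was 0.933 among B1 lines, 0.940 among B2 lines, 0.959 among B3B lines and 0.940 among B3A lines. The lowest single value within a prefix was 0.571, among B1 lines. All regions of a line share its library and its unknown depth.

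Prefixes differed at nearly all of the 131 regions, and B1 stood highest. With limma's moderated F test on log2 odds, fitted over 787 regions, 128 of 131 regions differed between the 4 prefixes after Benjamini-Hochberg adjustment at 0.05, where 81.6% of all regions did. The members' share of 97.7% is near the 95.6% of the 344 regions of the other categories at 10% or more, so it is not a result about the aging_Meer regions. Among the 128, the B1 mean was the highest for 123 and the B2 mean for 5, while the B3A mean was the lowest for 127. When only the 31 lines whose name ends in N entered, the test compared B1, B3A and B3B, since no B2 line has the N. It called 0 of 131 regions (70 at an unadjusted p under 0.05), where 0.254% of all regions were called. With the 54 lines that lack the N it called 124 of 131, where 67.3% of all regions were called, and with libraries centred 70 of 131, where 56.2% were.

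The contrast of B1 with B3A was chosen because earlier results of these data had shown these prefixes at the extremes. In it 131 of 131 regions were higher in B1 and past 0.05, where 85.3% of all regions were. Of the 344 regions of the other categories at 10% or more, 96.8% were called, so the share of the 131 is near theirs. After each library was centred on its own mean, 83 of 131 were called, 78 of them higher in B1 and 5 lower, where 54.8% of all regions were called, 220 of them higher and 211 lower. The region means differed by 4.83 to 31.9 points with a median of 21.1, and the B1 mean was 1.48 to 3.83 times the B3A mean, with a median of 1.94. On the log2 odds scale the median difference was 1.60 for the 131 regions and 1.21 over all 787. It was 1.51 for the 344 regions of the other categories at 10% or more. With libraries centred, the difference was positive at 107 of the 131 regions and negative at 24, called or not. Centring subtracts 1 value from all regions of a library, so a region's slope on the line's level also enters the centred difference. The median slope was 1.30 for the 131 regions and 1.05 over all regions. How far the split into higher and lower follows from slope was not tested.

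Final N and prefix go together, and no source used here says what the N stands for. It ends the names of 6 of 28 B1 lines, 9 of 19 B3B lines, 16 of 20 B3A lines and no B2 line. Within lines with a final N, the mean over the 131 regions was 41.8% ± 9.86 (SD) in 6 B1 lines and 21.8% ± 12.7 in 16 B3A lines. Within lines without it, the mean was 38.2% ± 15.7 in 22 B1 lines and 12.9% ± 7.27 in 4 B3A lines. All 131 region differences were positive in both subsets, with medians of 1.64 on the log2 odds scale with the N and 2.18 without it. With limma 63 of 131 were called among lines with the N, where 28% of all regions were, and 125 among lines without it, where 71.4% of all regions were.

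Other pairs of prefixes differed less. B1 was higher than B3B at 119 of 131 regions past 0.05 (67.1% of all regions), and B2 was higher than B3A at 125 (72.4% of all regions). For B2 against B3B, 0 of 131 regions were called by limma, although 39 had an unadjusted p under 0.05 and 130 were higher in B2 (0.254% of all regions were called higher in B2). For B1 against B2 and for B3B against B3A, limma called 0 of 131, with 7 unadjusted in each (0% of all regions in both). B1 was the higher of its pair at 121 regions and B3B the higher of its pair at 128. These contrasts share lines, so they do not support one another. The order of the 131 regions by level was nearly the same in each prefix, with Spearman's rho between prefixes of 0.958 to 0.974 across regions, which are not independent replicates.

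**Figure D3:**
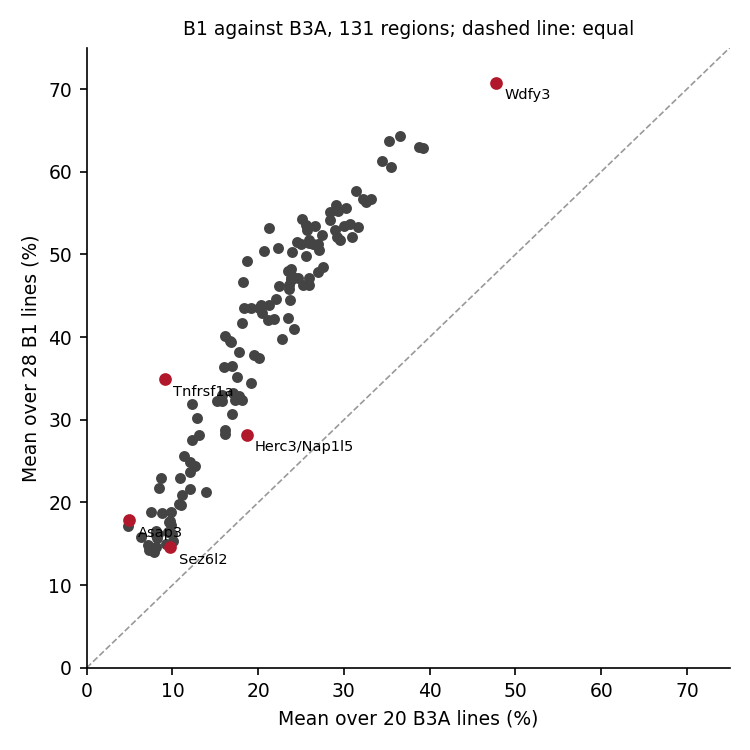
Mean methylation (%) of each of the 131 regions over 28 B1 lines (vertical) against 20 B3A lines (horizontal), with 5 regions named. All points lie above the dashed line of equality; with libraries centred 5 of the 131 were called lower in B1, Sez6l2 among them.

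The members with the smallest adjusted p in the F test were Asap3 and Tnfrsf1a. Tnfrsf1a (chr6:125360138-125360638, 10665 bp from the nearest gene start) ran from 2.33% over a median of 34.2% to 62.8% in B1 lines, from 4.93% over 22.9% to 54.7% in B2 lines, from 3.77% over 17.02% to 57.96% in B3B lines and from 1% over 6.601% to 28.7% in B3A lines. The B3A lines were thus all under the B1 median, although the ranges overlapped. The means were 34.9% ± 17.1 in B1 and 9.12% ± 7.83 in B3A (SD, n = 28 and 20), a difference of 2.48 ± 0.385 (SE) on the log2 odds scale, the largest among the 131 regions (limma, adjusted p = 2.54e-06). Asap3 (chr4:136238402-136238902) ran from 3.16% over 16.2% to 44.96% in B1 lines, from 4.35% over 7.95% to 36.5% in B2 lines, from 1.41% over 4.08% to 15.3% in B3B lines and from 0.417% over 3.18% to 22.7% in B3A lines. No B3B line exceeded 15.3% at Asap3, although 2 B3B lines averaged 64.8% over the 131 regions. B1 averaged 17.8% ± 12.02 and B3A 4.95% ± 5.41, a difference of 1.96 ± 0.324 (SE) in log2 odds (adjusted p = 1.04e-05).

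The next smallest p belonged to Clec1a, which encodes a C-type lectin-like receptor, Olfm1, a secreted glycoprotein of neurons, Cmip and Rasgef1c, an exchange factor gene. Their adjusted p in the F test ran between 0.000102 and 0.00011. Clec1a averaged 40.1% ± 18.8 in B1 and 16.2% ± 13.6 in B3A, and Olfm1 50.7% ± 20.2 in B1 and 22.3% ± 15.6 in B3A (SD, n = 28 and 20). Cmip averaged 31.9% ± 17.5 in B1 and 12.3% ± 11.2 in B3A. All 6 regions were also called higher in B1 with libraries centred. With the library mean as a covariate in the F test, Tnfrsf1a alone of the 6 passed 0.05 (limma, adjusted p = 0.0436). The others had an adjusted p between 0.053 (Asap3) and 0.49 (Rasgef1c).

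Of the 3 regions that did not pass the F test, 2 were at Sgsm3, a Rab GTPase-activating protein gene (adjusted p = 0.064), and Anxa6, an annexin gene (0.0581). Anxa6 averaged 16.4% ± 11.03 in B1, 12.8% ± 7.79 in B2, 13.3% ± 12.8 in B3B and 9.52% ± 6.66 in B3A (SD, n = 28, 18, 19 and 20 in that order). Sgsm3 had values in 76 lines and no CpG with a value in all lines.

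Once the mean of the library entered the fit as a covariate, few regions still differed between prefixes. The same test then called 3 of 131 regions, where 3.43% of all regions were called, so the 131 do not stand out. The 3 were Sez6l2 (adjusted p = 0.00763), the region at Herc3 and Nap1l5 (0.0336) and Tnfrsf1a (0.0436), and Asap3 was next at 0.053. Tnfrsf1a missed 0.05 with an offset of 0.001 (adjusted p = 0.0593), on fractions without log odds (0.0792) and with lines of 1 title, final N or not (0.0895). The Herc3 and Nap1l5 region missed it on fractions (0.0553) and with the covariate on the fraction scale (0.0569), and Sez6l2 with that covariate (0.067). With lines that have a final N alone, and with lines that lack it alone, the count was 0 of 131 in both, with 20 and 13 at an unadjusted p under 0.05 in that order, where 0% and 0.381% of all regions were called.

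Sez6l2 (chr7:126963195-126963695) had the smallest SD of the 131 regions and ran from 2.38% over a median of 14.5% to 28.6% in B1 lines, from 7.29% over 13.5% to 29.4% in B2 lines, from 3.24% over 8.86% to 36.7% in B3B lines and from 1.51% over 8.80% to 26.3% in B3A lines. It averaged 14.6% ± 6.43 in B1 and 9.76% ± 6.15 in B3A (SD). At a given library mean, B1 lines were lower than B3A lines by 0.39 ± 0.10 (SE) on the log2 odds scale, and lower than B2 lines by 0.39 ± 0.09. Pax2, a kidney and eye transcription factor, and Gata4, a heart and endoderm factor, were higher in B1 than in B3A by 0.72 ± 0.227 and 0.79 ± 0.247 (SE), and with libraries centred they were lower by 0.45 and 0.39 (limma, adjusted p = 0.00258 and 0.00392). With the library mean as covariate, neither differed between prefixes past 0.05 (adjusted p = 0.185 and 0.277).

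The region at Herc3 and Nap1l5 (chr6:58906528-58907028) lies at an imprinted gene. Nap1l5 is expressed from the paternal copy and sits within an intron of Herc3, a ubiquitin ligase gene, and the maternal copy is methylated at its promoter, which gives a level midway between none and full in somatic cells. The region ran from 5.26% over a median of 30.9% to 48.3% in B1 lines, from 2.28% over 23.2% to 50.2% in B2 lines, from 0.208% over 11.1% to 47.1% in B3B lines and from 1.99% over 20.8% to 40.2% in B3A lines. No line exceeded 50.2%, while 77 of the 131 regions exceeded 75% in some line. A low maximum is not particular to this region: no line exceeded 44.96% at Asap3 or 36.7% at Sez6l2. The highest value was 66.9% among the 34 regions with means between 10% and 20%. It was 85.7% among the 26 with means between 20% and 30%, which include this one. The B3B lines were lowest here, unlike at 127 of the 128 regions called by the F test. At a given library mean B3B lines were lower than B3A lines by 1.20 ± 0.286 (SE) on the log2 odds scale. A B3B line held 0.749% here with a mean of 31.2% over the 131 regions, and a B3A line held 31.7% with a mean of 16.1%.

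For Tnfrsf1a the covariate left B1 above B3A by 1.33 ± 0.335 and B3B above B3A by 0.99 ± 0.329 (SE, log2 odds). For Asap3 it left B1 above B3A by 1.07 ± 0.295 and above B3B by 0.90 ± 0.284. Single lines departed further. One B1 line held 4.60% at Tnfrsf1a against a mean of 52.1% over the 131 regions. The same line held 43.3% at Asap3. That was 21.9 points above the straight-line relation of Asap3 to the other categories, the largest such excess among the 85 lines.

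**Figure D4:**
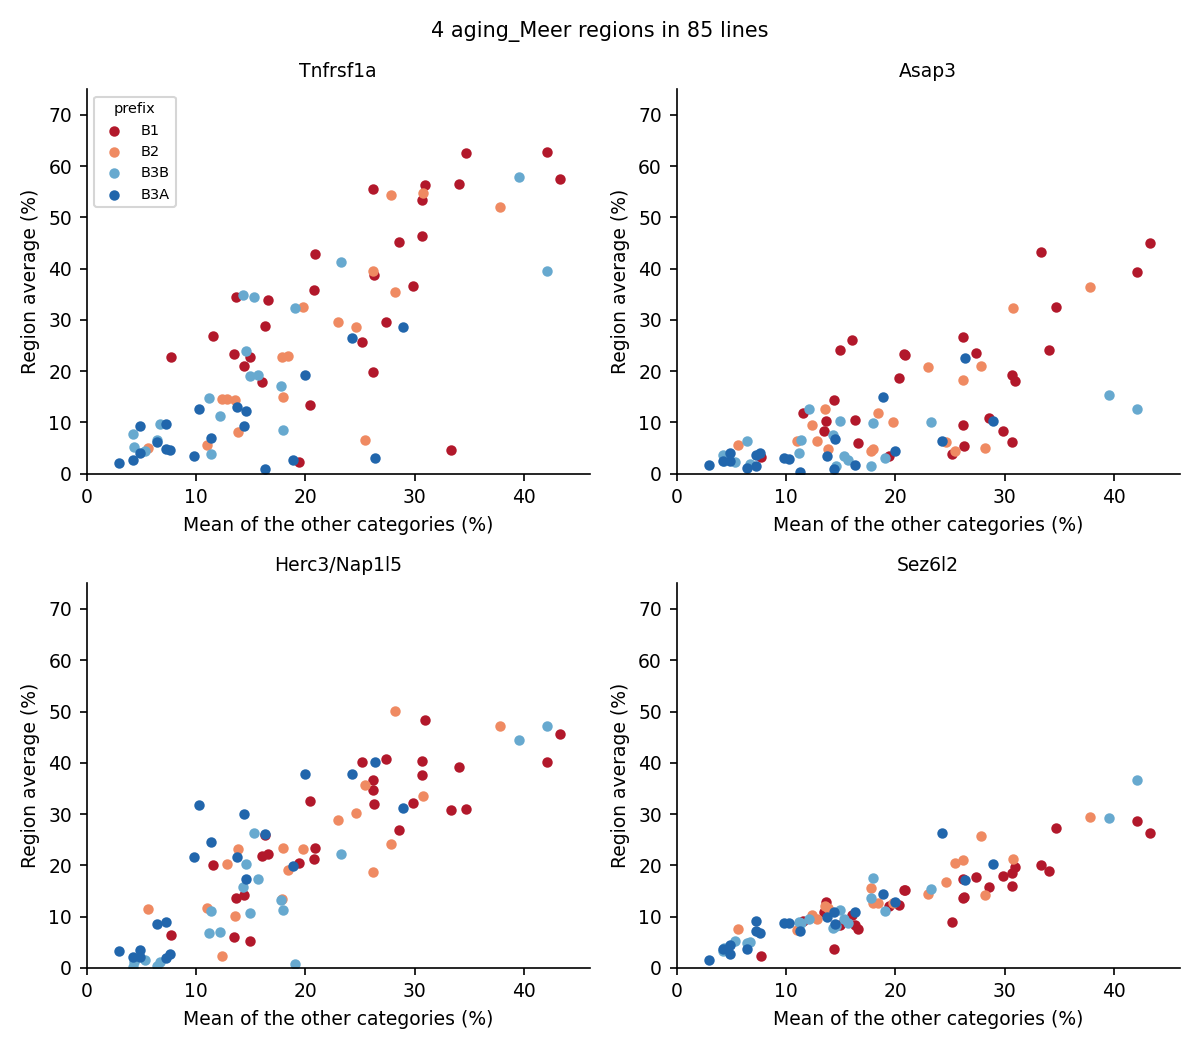
Region average (%) at Tnfrsf1a, Asap3, Herc3/Nap1l5 and Sez6l2 against the line's mean over the other categories (%), 1 point per line, coloured by prefix. Tnfrsf1a and Asap3 scatter widely at a given level of the line. Herc3/Nap1l5 stays at or under 50.2%, Asap3 at or under 44.96% and Sez6l2 at or under 36.7%. Sez6l2 follows the line's level more closely than the other 3 (r = 0.912, under the median of 0.949 over the 131 regions).

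The departures of a region from the line's level repeated between neighbouring CpGs. For 62 regions with at least 6 CpGs with values, the CpGs were divided into alternate sets, the straight-line relation to the other categories was removed from each set's mean, and the remainders were correlated over 85 lines. The correlation had a median of 0.711 and lay between 0.419 and 0.977. It was highest for Herc3 and Nap1l5 (0.977, 23 CpGs), followed by Tmem178 (0.960, 12 CpGs), Tob1, an antiproliferative gene (0.950, 9 CpGs), Asap3 (0.945, 15 CpGs) and Tnfrsf1a (0.924, 7 CpGs). Lncpint had 0.865 over 10 CpGs. Tmem178 and Tob1 were chosen for naming after their values were seen. Neighbouring CpGs share reads and library, so these values show agreement within a region and not replication.

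Between regions the remainders were less alike than the raw levels. Over 8515 pairs of the 131 regions the raw levels correlated with a median of 0.890. The remainders correlated with a median of 0.024, between -0.591 and 0.663. Removing a level that the regions share lowers such correlations by construction, so the low median is a description only. Pairs on the same chromosome had a median of 0.030 and pairs on different chromosomes 0.024. The highest pair was the region in Anks3 and one near Ppl, 179233 bp apart on chromosome 16, at 0.663. The next was A330001L22Rik and Pax2, on different chromosomes, at 0.654. Of the 62 pairs above 0.5, 57 were among the 8001 pairs on different chromosomes and 5 among the 514 on the same one. The other 16 pairs within 1000000 bp lay between -0.258 and 0.418. These pairs were named after their values were seen.

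CpGs within a region differed widely in level. Of the 131 regions, 112 held a total of 808 CpGs with values in all lines, and for the 72 with at least 5 such CpGs the highest and lowest CpG mean lay 6.63 to 45.8 points apart, with a median of 23.96. This range exceeded 20 points in 48 of them. The widest was in Ruvbl2, which encodes an ATPase of chromatin remodelling complexes (chr7:45424896-45425396), where a CpG at 50.03% ± 19.1 and another at 4.20% ± 6.26 (SD, n = 85) lay 96 bp apart. Ssh3, a cofilin phosphatase gene (chr19:4268457-4268957), had CpGs at 44.3% ± 23.7 and 1.55% ± 2.48 that were 276 bp apart. In both, the higher CpG exceeded the lower one in 85 of 85 lines.

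Ly6g6c spanned 14.9% to 54.6%, Cyp1a2 16.8% to 56.2% and Adad2 3.80% to 41.8%. The Adad2 minimum is the CpG 31 bases after the gene start in the sequence shown, and the maximum lies 165 bp from it. The narrowest range was that of Herc3 and Nap1l5, 16.8% to 23.4% over 23 CpGs. A CpG at the centre of the region, the position around which a fixed window would be drawn, had a value in 74 regions. Of the 70 that held other CpGs too, the central one was the higher in 34, and the median difference was -0.761 points. By distance, CpGs within 50 bp of the centre averaged 0.0636 points above their region's mean and those beyond 200 bp 2.15 points below it, with 26 CpGs in the outer group. The region average therefore did not stand for each CpG.

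**Figure D5:**
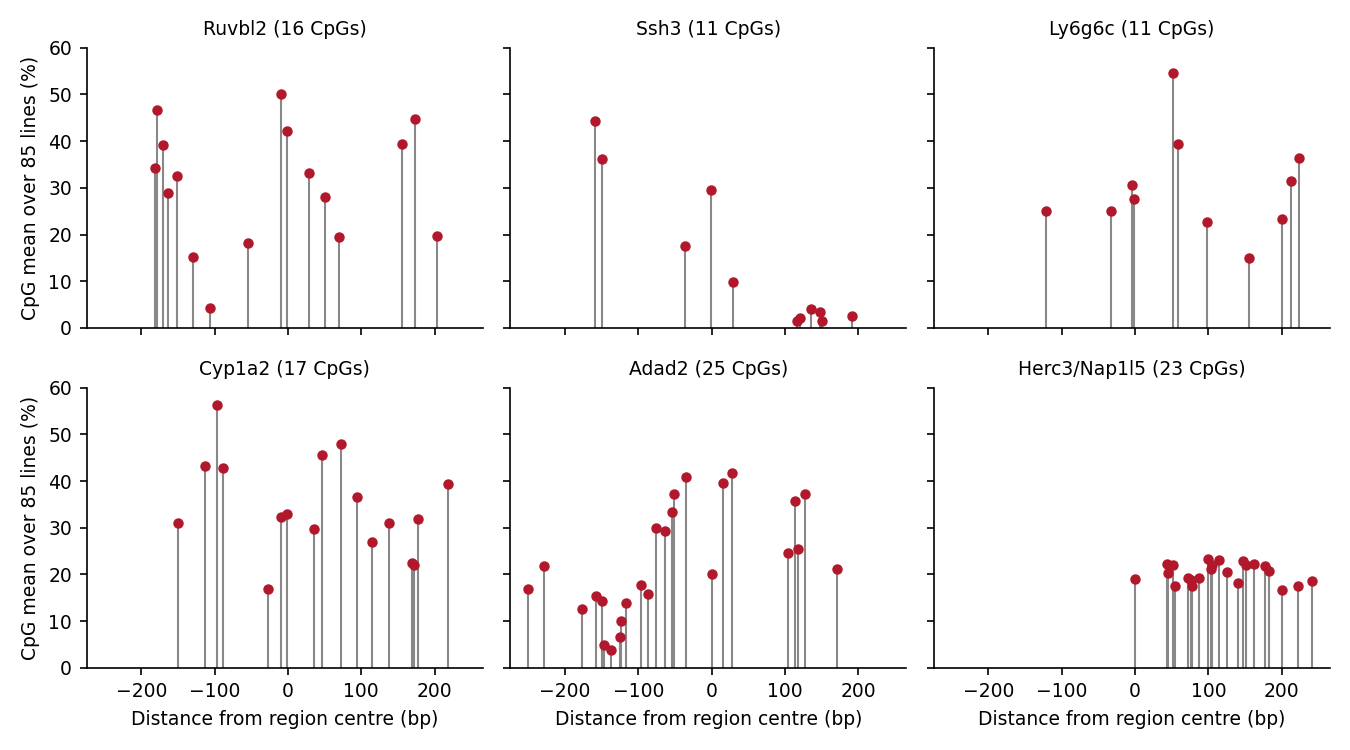
Mean methylation of each CpG over 85 lines (%) against its distance from the centre of the region (bp), for the 5 regions with the widest range and for Herc3/Nap1l5. In Ruvbl2 neighbouring CpGs lie between 4.20% and 50.03%, in Ssh3 the level falls along the region, and the 23 CpGs of Herc3/Nap1l5 stay between 16.8% and 23.4%.

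Of 8 lists of genes by function, 5 contained a gene at 1 or more of the 131 regions. Developmental transcription factors had 3 (Pax2, Gata4 and Pax5) out of 83 genes listed, all past the F test. Pax5, which directs B-cell development, averaged 34.9% ± 19.9 (SD, n = 85), with 46.4% ± 18.6 in B1 and 23.6% ± 16.8 in B3A. Pax2 and Gata4 were lower, at 12.996% ± 7.12 and 13.9% ± 7.83. Growth factor and insulin signalling had Akt1, a survival kinase gene, at 36.6% ± 18.3. Chromatin and DNA methylation had Cbx2, a Polycomb subunit gene, at 32.9% ± 19.4, and the list of adhesion and cytoskeleton had Tns3, a focal adhesion gene, at 41.7% ± 20.3 (SD, n = 84). Immune and inflammatory signalling had Tnfrsf1a. All 7 passed the F test, as did 128 of the 131. The lists of nuclear receptors (30 genes), of Wnt, Notch and Hedgehog signalling (38 genes) and of synapse and ion channels (52 genes) had none. The lists are not complete, so an empty list does not mean that a function is absent. The channel genes Kcnn3 and Tpcn1, for example, are at regions among the 131 but not on the list of channels.

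Overlap of categories gave a check on the averages. The Adad2 region shared 366 bp with a region of the category germline_Dahlet, with 24.2% ± 12.8 in the aging_Meer region and 21.2% ± 11.2 in the germline region. Herc3 and Nap1l5 shared 229 bp with a region of the category imprinting, with 21.7% ± 13.9 in the aging_Meer region and 19.2% ± 12.3 in the imprinting region. Tm6sf1 shared 439 bp with a region of the category Cancer, with 11.3% ± 9.68 in the aging_Meer region and 12.6% ± 10.8 in the Cancer region (SD, n = 85 each). The mean absolute difference per line was 3.05, 2.80 and 1.71 points in that order, well under the spread between lines. Shared bases mean shared reads, so these pairs are not independent measurements.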

How the data were processed

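EM-seq libraries of 101 titles were labelled, and the deposited tables hold 85 columns. The authors deposited average methylation fractions for 868 regions, with missing values written as text, and fractions for 7917 single CpGs without missing values. Per the deposited tables' own names both were filtered at a coverage of 10, without saying what the filter applied to. Reads were processed with Bismark, Bowtie2 and Trim Galore 0.6.4 against mm10, per the submitters' processing notes, which give no settings here. Fractions are given as percent.

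Columns were matched to titles by name: 44 matched 1 title, 16 belong to lines with 2 titles, 1 matched none, and the others carry a final N that the title lacks. All were grouped by prefix and treated as lines. This includes B37 and B37N of B1, whose names differ only in the final N (means of 26.2% and 23.2% over the 131 regions). Nothing says that 2 columns are separate cultures, so a p-value covers only the spread among columns, which may be technical. Replicate numbers were given in accession order and pair nothing.

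The 787 regions that had values in 80% of lines or more entered limma 3.58.1 (R 4.3.3). The scale was the log2 odds of the fraction, with 0.01 added above and below, and p-values were adjusted by Benjamini-Hochberg over the 787 with a threshold of 0.05. Fractions without coverage allow no count model. Correlations were tested by permutation in Python 3.11.15 with NumPy 2.4.6 and SciPy 1.17.1, and the fits and permutations were tested on simulated data. Gene overlaps and promoter windows came from RefSeq tables of GRCm38.p6, whose bases read CG at all 1429 deposited CpG positions that fall in a window. These tables have no exons. Averages of the listed CpGs of a member had a correlation of 0.958 with its deposited average over 9512 values.

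The members, gene lists and tests were chosen with earlier results of these data known. Regions were named by a rule: the 6 highest and 6 lowest means, the 5 largest and smallest SDs, the 6 smallest p and those not called in the F test, those called with the covariate, the 5 highest and lowest correlations, the 5 widest CpG ranges, the 3 on each side of the threshold, and those in the gene lists. Regions with a promoter window are named as well, and 2 regions of the rule are not reported here. Alternatives were another offset, fractions without log odds, other filters on missing values, recomputed averages, lines by final N or number of titles, robust moderation, centring, other covariates, a rank test and 2 single columns left out. Lines of 1 title were all lines except the 16 with 2 titles and the 1 that matched none. They include columns whose final N is not in the title.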

Additional observations from a re-analysis of the deposited data

How the results depend on the processing

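No paired analysis was possible because the replicate numbers were given in accession order and pair nothing. The count of regions that differ between prefixes (128) became 0 with lines that have a final N (0.254% of all regions), none of which is a B2 line. With libraries centred it became 70 (56.2% of all regions, against 53.4% of the 131). The count for B1 against B3A (131) became 63 with the final N (28% of all regions) and 83 with libraries centred (54.8%). At a given library mean the count (3) became 0 without the final N, 0 with it, and 5 with lines of 1 title, final N or not. The subsets of lines hold fewer lines, and whether that or anything else changed these counts was not tested. Under the other alternatives the first count ran between 108 and 129, with 108 of 109 regions where only those with a value in every line entered. Every region tested kept a slope on the other categories past 0.05 under each alternative run. The covariate calls depend on its form: with a covariate on the fraction scale Asap3, Igf2bp2 and Tnfrsf1a were called. For the 42 regions named by the rule, the difference between B1 and B3A kept its direction in all 490 recomputed values, in which centring was not included, and missed 0.05 in 35 of them, 21 with the final N. Robust moderation and leaving out the column that lacks most regions changed none of these calls. Depth is unknown, so a low value from few reads cannot be told from one of many.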
